A study of Homo sapiens with 30 samples.

Results

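The recurrent regions are 272 nuclear intervals that stood with the same chromosome, start and end in the final off-target lists of 3 mitochondrial base editors, ND5.1, ND5.3 and ND6. They were chosen by their presence in those lists, out of 1139 distinct intervals in the 4 deposited lists of the series (23.9%). Of the 272, 24 were also in the ND4 list and 248 were not. They made up 50.5% of the 539 ND5.1 regions, 44.5% of the 611 ND5.3 regions and 38.0% of the 716 ND6 regions, and the 24 made up 28.9% of the 83 ND4 regions. Since presence in the lists is the rule itself, the size of the overlap is a description.

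DdCBEs are base editors that need no guide RNA. A bacterial deaminase that acts on double-stranded DNA, DddA, is split into inactive parts, each part is fused to a TALE array, and the parts meet where both arrays bind. The deaminase turns cytosine into uracil and is known to prefer a cytosine that follows a thymine. A mitochondrial targeting sequence (MTS) sends the editor to mitochondria, so deaminated cytosines in nuclear DNA are off-target marks. Detect-seq labels deoxyuridine with biotin, pulls the labelled fragments down and reads them across the genome. The lists bear on whether editors with different TALE arrays left marks at the same nuclear places.

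All libraries came from HEK293T, a transformed line of human embryonic kidney. The ND5.1 and ND6 libraries had the L1397N orientation of the split DddA, the ND5.3 libraries had L1397C, and those of ND4 had L1397N or L1397C. The labels of 8 libraries name the ND5.1 list, those of 2 the ND5.3 list, those of 9 the ND6 list and those of 10 the ND4 list. Those of ND4, ND5.1 and ND6 include an input and controls with Dead-DddA or with the left or right TALE removed (Del-Left-TALE, Del-Right-TALE). Each of these 3 editors also has 2 pulldown libraries with Lipo2000 in the title, labelled as treated with the L1397N form, and ND5.3 has 0. The TALE-Free library carries the name of the ND6 list, and a GFP library, labelled untreated, carries none. Each list holds 1 pooled result, and which of these libraries went into it is not given in the sources used here. Replicate error can be given for none of the values, and the depth of the libraries is unknown. The 95% intervals cover counting error over regions only.

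The recurrent regions carried 1 deposited class and 1 strand each. All 272 were of class IND in both ND5.1 and ND6, and the 24 shared with ND4 were of class IND there too. Over the whole lists, class IND held 333 of 539 ND5.1 regions, 596 of 716 ND6 regions and 36 of 83 ND4 regions. The files do not define the class names. The deposited strand was the same in ND5.1 and ND6 for 272 of 272 regions, and the same in all 3 lists that give a strand for 24 of 24. ND5.3 lists no strand, class or signal. No recurrent region overlapped a listed interval with other bounds. The nearest different interval lay 380 bases away, in ND5.3 alone, beside the region upstream of WASF1.

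Sequences show what the deposited strand and bounds mark. The RefSeq promoter table, built on GRCh38.p14 (hg38), holds 250 bases before to 50 after gene start sites. Of the 260 recurrent regions on chromosomes that the table covers, 17 overlapped such a window and 15 lay wholly in it with a base to spare on each side. Read on the deposited strand with start and end counted from 1 and both included, 15 of 15 began with a cytosine that followed a thymine, and 15 of 15 ended with a cytosine. Counted from 0, the same intervals had a cytosine at both ends in 7 of 15 cases. The coordinates are therefore taken as counted from 1, and widths as end minus start plus 1. Among other class IND regions in the windows, 23 of 24 began with a cytosine after a thymine and 24 of 24 ended with a cytosine, so these bounds were not particular to the recurrent regions. Nothing in the sources used here says whether the calling required them.

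The runs below show 12 of the 15 regions, chosen for stretches of sequence that they shared or for a motif, with examples for contrast. The other 3, at CFAP52, LOC124904620 and RAB5IF, held none of the 4 motifs searched and are not printed. Capitals mark the deposited interval, read 5′ to 3′ on the deposited strand, and lower case marks 10 flanking bases. The first set was picked for a CTCF-like core, which is CC, any 3 bases, AG, any 2 bases and GGC, searched on both strands. CTCF is the zinc finger protein that anchors chromatin loops. The intervals are SLC30A5 (chr5:69093805-69093830, minus strand), LOC124900823 (chr4:183472417-183472431, minus), DMKN (chr19:35510560-35510579, minus), LOC124903549 (chr15:89358774-89358784, minus) and LOC124904953 (chr20:63381995-63382017, plus), whose run did not hold the core and is given for contrast.
SLC30A5: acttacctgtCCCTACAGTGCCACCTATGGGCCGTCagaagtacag
LOC124900823: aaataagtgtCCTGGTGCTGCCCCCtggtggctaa
DMKN: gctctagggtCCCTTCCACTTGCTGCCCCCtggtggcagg
LOC124903549: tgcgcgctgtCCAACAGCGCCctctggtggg
LOC124904953: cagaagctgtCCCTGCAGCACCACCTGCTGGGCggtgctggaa

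The core was found in 4 of the 15 recurrent runs and in 2 of the 24 other class IND runs. It was present in 1.16% of 243523 stretches of 40 bases cut from all promoter windows, and in 10.6% of the 34789 whole windows of 300 bases. The runs at LOC124900823 and DMKN, on different chromosomes, shared an identical stretch of 17 bases, TGCTGCCCCCTGGTGGC, that crossed the end of both intervals. A match of letters is a description and not a binding site.

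A second set held the letters CTCTAG. The intervals are ZSCAN25 (chr7:99616886-99616907, minus), ARL14EP (chr11:30323026-30323048, plus) and the shared start region of SNHG20 and SEC14L1 (chr17:77088593-77088630, plus).
ZSCAN25: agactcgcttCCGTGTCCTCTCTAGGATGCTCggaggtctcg
ARL14EP: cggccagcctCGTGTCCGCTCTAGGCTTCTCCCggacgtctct
SNHG20 and SEC14L1: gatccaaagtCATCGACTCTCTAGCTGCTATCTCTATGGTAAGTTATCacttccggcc

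In these 3 the letters lay inside the interval, and in the DMKN run shown above they lay in the flank, so 4 of 15 recurrent runs held them. They were in 6 of the 24 other class IND runs and in 1.43% of the 40-base stretches. The search for these letters, like those that follow, was chosen after the sequences had been read.

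The third set is a pair of start sites on different chromosomes with the same letters. DNAJC19 (chr3:180989770-180989782, minus) encodes a DnaJ protein of the mitochondrial inner membrane, and ZNF330 (chr4:141220892-141220908, minus) a zinc finger protein.
DNAJC19: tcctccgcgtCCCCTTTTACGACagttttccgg
ZNF330: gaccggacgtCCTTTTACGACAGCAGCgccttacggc

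Both runs held a stretch of 13 identical bases, CCTTTTACGACAG. The letters TTTTACGAC were in none of the 24 other class IND runs (at most 12.5% by the same kind of limit, applied to 3 counts of 24) and in 0.00903% of the 40-base stretches. A further run, at MLF1 (chr3:158571106-158571142, plus), held TGACGTCA, the palindrome known as the cyclic AMP response element. That element was in 0.224% of the stretches and in 1 of the 24 other class IND runs. The run at COX7C (chr5:86617862-86617889, plus), a nuclear gene for a cytochrome c oxidase subunit, held none of the 4 motifs and is given for contrast.
MLF1: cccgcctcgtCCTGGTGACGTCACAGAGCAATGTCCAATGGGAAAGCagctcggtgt
COX7C: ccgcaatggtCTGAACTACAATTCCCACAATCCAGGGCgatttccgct

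Within the 15 intervals there were 126 cytosines on the deposited strand, and 38 of them followed a thymine. The number of cytosines per interval ran from 5 to 12, with a median of 8, and the number after a thymine from 1 to 7. The G and C content ran from 42.1% to 88.9%, with a median of 65.2%. These 15 regions all lie in promoter windows, so their composition does not stand for that of the other recurrent regions, whose sequence was not analysed here.

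Recurrent regions that were also in ND4 were mostly those of strongest signal in ND5.1 and ND6. Among the recurrent regions 24 of 272 were in ND4 (8.82%, Wilson interval 6.00 to 12.8), against 4.45% of all ND5.1 regions, 4.58% of all ND5.3 regions and 3.49% of all ND6 regions. Outside the recurrent set, ND4 held 0 of 267 ND5.1 regions, 4 of 339 ND5.3 regions and 1 of 443 distinct ND6 regions. By the limit of 3 counts, 0 among 267 leaves room for at most 1.12%. Class was not matched in these comparisons. The recurrent regions are all of class IND, which holds 333 of the 539 ND5.1 regions and 596 of the 716 ND6 regions. Of the 333, 24 were in ND4. The part of class in these contrasts was not tested. The signal value is the authors' own, 1 per region and list, with no stated normalization. It is given here as a percentile within its list, where 100 is the highest region. The lists may have been limited on signal, and whether a region enters ND4 may depend on the same property, so these ranks are a description without a test.

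In ND6 the 24 regions had a median percentile of 97.5 (quartiles 94.5 and 98.7), and the 248 others 77.1 (61.2 and 87.9). In ND5.1 the medians were 96.2 (93.1 and 98.4) and 58.1 (36.3 and 77.8). The 272 regions were put in order of their mean percentile over ND5.1 and ND6 and divided into 4 groups of 68. The highest group held 21 of the 24 and each of the others held 1. The other 47 regions of the highest group were not in ND4. Within that group the median ND6 percentile was 97.9 for those in ND4 and 93.6 for the rest.

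**Figure D1:**
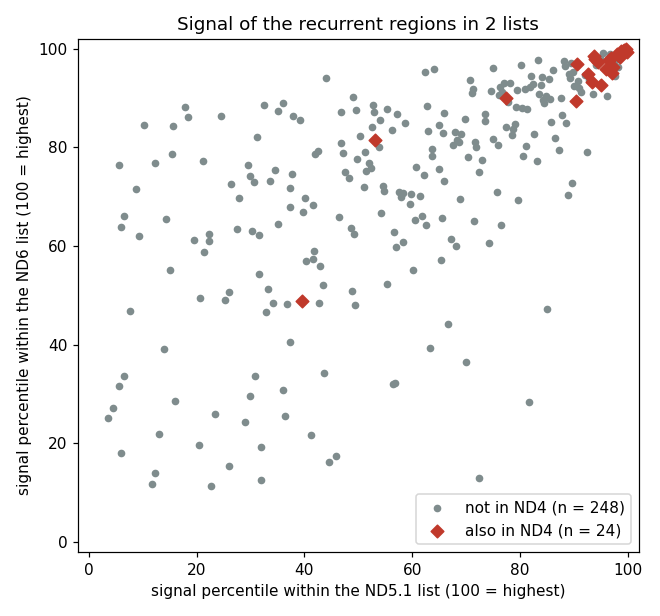
Each point is 1 of the 272 recurrent regions, placed by its signal percentile within the ND5.1 list (horizontal) and the ND6 list (vertical), with the 24 also in ND4 as diamonds. Most diamonds crowd the upper right corner. The lowest is at percentiles of 39.5 in ND5.1 and 48.95 in ND6, and another is at 53.2 and 81.5. The 248 others spread down to 3.62 in ND5.1 and 11.3 in ND6.

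The order within ND4 was different. There the 24 regions had a median percentile of 36.0 (19.7 and 66.9), and their ranks ran from 8 to 81 of 83. Ranked among the 36 class IND regions of ND4 alone, their median percentile was 50. They are 24 of those 36, which limits how far this value can lie from the middle. Within that limit, their median stood neither high nor low in class IND. Over the 24 regions, Spearman's rho of the signal values was 0.85 between ND5.1 and ND6, 0.35 between ND4 and ND5.1 and 0.08 between ND4 and ND6. These are descriptions across regions that share a genome, a cell line and a calling. Class moved with this result. In ND4 the median signal value was 5.57 for the 36 class IND regions, 7.77 for the 35 of class IND.Extend and 7.15 for the 11 of class DR, and no recurrent region was in the latter classes. Within class IND of ND4, the 24 recurrent regions had a median of 5.57 (quartiles 4.74 and 8.54) and the 12 others 5.92 (5.21 and 9.10), with overlapping ranges. Over all 272 regions rho between ND5.1 and ND6 was 0.73.

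**Figure D2:**
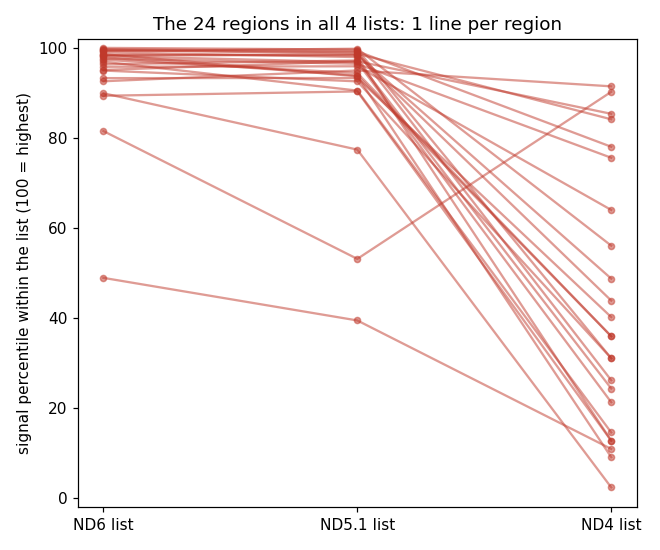
Each line is 1 of the 24 regions found in all 4 lists and joins its signal percentile within the ND6, ND5.1 and ND4 lists, where 100 is the highest region of a list. Most lines leave ND6 and ND5.1 near the top, with medians of 97.5 and 96.2 over the 24. In ND4 the lines spread around a median of 36.0 in the whole list. Among the 36 class IND regions of ND4, of which they are 24, the median is 50.

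Of the 24, 11 lay inside a protein-coding gene and the other 13 in no gene. At GRK5, which encodes a receptor kinase (chr10:119445511-119445546), the signal value was 92.0 in ND5.1, 116.4 in ND6 and 5.303 in ND4. It was thus rank 3, rank 1 and rank 57. At CORO2B, a coronin that binds actin (chr15:68651256-68651277), the values were 82.5, 98.4 and 10.5, and the region was among the better placed in ND4, at rank 19. At AAK1, a kinase of clathrin-mediated endocytosis (chr2:69565500-69565533), they were 54.0, 78.1 and 4.21, with rank 72 in ND4.

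BLOC1S3, which encodes a subunit of the lysosome biogenesis complex BLOC-1 (chr19:45187694-45187712), was at ranks 10, 12 and 47 in ND5.1, ND6 and ND4. GPR161, a receptor gene of Hedgehog signalling (chr1:168084921-168084945), was at ranks 18, 14 and 65.

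The other genic regions of the 24 stood lower in the order of ND6. At IL16, a cytokine gene (chr15:81265992-81266016), the signal value was 39.0 in ND5.1, 48.7 in ND6 and 5.57 in ND4. At FAM221A (chr7:23697149-23697167) it was 50.8, 44.1 and 5.07, and at IFFO2, an intermediate filament family gene (chr1:18907111-18907133), 44.2, 41.3 and 8.21. ABTB3 (chr12:107607683-107607696) had 31.5, 27.4 and 4.21. PKD1L1, a gene of the polycystin family (chr7:47893351-47893361), had 18.5, 28.2 and 3.56, and held the narrowest of the 24 regions, with 11 bases. RAB5B, an early endosome GTPase (chr12:55996290-55996338), held the widest, with 49 bases, at ranks 37, 49 and 50. All of these ranked better in ND5.1 and ND6 than their counterparts outside ND4 at the median (226 and 165).

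Intergenic regions of the 24 included the best placed of them in ND4. A region 3586 bases from the pseudogene RPS13P7 (chr15:57559994-57560017) was at rank 8 in ND4, with a signal value of 16.6, and at ranks 28 and 54 in ND5.1 and ND6. A region 2560 bases from LOC124901590 (chr7:11344002-11344039) was at rank 13 in ND4, and at ranks 17 and 36. In ND5.1 and ND6 the lowest of the 24 lay 303 bases from WASF1, an actin regulator (chr6:110179973-110179987). Its signal value was 9.70 in ND5.1 (rank 326), 9.24 in ND6 (rank 366) and 4.16 in ND4 (rank 74). It is the lowest diamond of the plot of percentiles. A further region of the 24, at rank 9 in ND4, had a percentile of 81.5 in ND6 and 53.2 in ND5.1. The latter was below the ND5.1 median of the 248 others, 58.1.

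Regions of strong signal were also found outside ND4. STUM (chr1:226608903-226608925) had 91.3 in ND5.1 (rank 4) and 107.8 in ND6 (rank 2), and SV2B, a synaptic vesicle glycoprotein gene (chr15:91247761-91247782), had 75.1 (rank 7) and 65.8 (rank 10). A region 2669 bases from NDEL1, a dynein regulator (chr17:8410441-8410462), was at ranks 19 and 9. Regions inside KLHDC8A (chr1:205354471-205354488) and SLIT3, an axon guidance ligand gene (chr5:168947435-168947466), were at ranks 11 and 28, and 29 and 15. CCDC88C (chr14:91286617-91286642) was at ranks 33 and 24. The ND6 list was headed by recurrent regions, which made up 10 of its first 10, 49 of its first 50 and 97 of its first 100. Over the whole ND6 list they made up 38.0%. In ND5.1 they made up 9, 35 and 70, against 50.5% of the whole list. These whole-list shares are not matched for class. All recurrent regions are of class IND, where they are 272 of 333 regions in ND5.1 and 272 of 596 in ND6. Presence in several lists may also depend on signal. The part of class and of signal in these counts was not tested.

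Some recurrent regions stood high in 1 list and low in the other. MYO18B, an unconventional myosin gene (chr22:25903476-25903489), had a percentile of 84.6 in ND6 and 10.2 in ND5.1, the widest gap of the 272. EBF3, a transcription factor gene (chr10:129877975-129877992), had 76.4 and 5.58. In the opposite direction, a region 432 bases from the histone gene H4C2 (chr6:26026453-26026464) had 13.0 in ND6 and 72.4 in ND5.1. DHX30, an RNA helicase gene (chr3:47837868-47837880), had 36.4 and 69.98. With 1 pooled value per list, no error can be set against these gaps. The lowest mean percentiles were at PTGIS, ENPP7P15, GUCY1A2, PPFIA2 and ZNF536, all inside genes, with ND6 ranks from 521 to 632.

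Regions in all 4 lists were wider at the median. Their median width was 24.5 bases (95% interval from order statistics 19 to 34, n = 24), against 18 bases (18 to 21, n = 248), and both groups spanned 11 to 49 bases in common. The intervals of the medians overlap. Signal moved with width: Spearman's rho of width and signal was 0.29 in ND6 and 0.18 in ND5.1 over the 272 regions. In the 68 regions of highest mean percentile the medians were 25 bases for the 21 in ND4 and 22 for the 47 others, closer than in the whole set. The part of signal in the difference was not tested. The widest recurrent region, with 67 bases, lay inside FAM221B (chr9:35826119-35826185), and the narrowest, with 6, inside STAB2, a scavenger receptor gene (chr12:103632771-103632776), neither in ND4. Regions in ND5.3 and ND6 alone were narrower, at 16 bases (15 to 17, n = 216), than the recurrent regions as a whole, at 19 (18 to 22), with intervals that do not overlap. Class IND regions in a single list had a median of 18 bases (17 to 20, n = 149), whose interval overlaps that of the recurrent regions.

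For gene context, the interval of each difference between the regions in ND4 and the rest included 0. Gene bodies held 154 of the 272 regions (56.6%, Wilson interval 50.7 to 62.4), where gene bodies cover 56.3% of the span between the first and last gene of each chromosome. The share was 45.8% among the 24 (27.9 to 64.9) and 57.7% among the 248 (51.4 to 63.6), a difference of -11.8 percentage points with a Newcombe interval of -30.7 to 8.25. Protein-coding gene bodies held 45.8% and 47.6%, which differ by -1.75 points (-20.7 to 18.3). With 24 regions, differences of this size are not detectable. The 154 regions lay in 190 genes, none of which held more than 1. Of these regions, 15 lay in 2 or more genes. Several of the 190 are overlapping genes of a cluster that share a single region, so 190 is not a count of separate loci. Protein-coding genes alone held 116, lncRNA genes alone 16, and 12 lay in both kinds. No recurrent region overlapped a miRNA hairpin.

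In protein-coding gene bodies the recurrent regions were compared with the regions in ND5.3 and ND6 alone. The share was 47.4% of 272 against 38.0% of 216, a difference of 9.46 points (Newcombe interval 0.62 to 18.0). For gene bodies of any type the difference was 2.45 points (-6.37 to 11.3), so it was seen in 1 of the 2 gene sets. Against class IND regions in a single list, of which 149 were counted, the differences were -2.24 points (-12.1 to 7.65) and -5.80 points (-15.3 to 4.06). These intervals are not adjusted for the number of comparisons.

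Gene ends held more of the recurrent regions than the length they cover. Within 1 kb of either bound of a gene lay 52 regions (19.1%, 14.9 to 24.2), where such windows cover 6.25% of the span. For protein-coding genes it was 33 regions (12.1%, 8.77 to 16.5) where windows cover 2.44%. This was not particular to the recurrent regions. Near any gene end lay 14.4% of the regions in ND5.3 and ND6 alone (10.3 to 19.7) and 18.8% of class IND regions in a single list (13.3 to 25.8). Near protein-coding gene ends lay 10.6% (7.20 to 15.5) and 14.1% (9.41 to 20.6). The shares within 1 kb of any gene end were 25% for those in ND4 (12 to 44.9) and 18.5% for the rest (14.2 to 23.9), a difference of 6.45 points (-7.59 to 26.8). Of the 33, 18 lay nearer to the 5′ bound of the gene, 11 to the 3′ bound, and for 4 the strand of the gene was not in the table. The 3′ cases included TRIM14, 867 bases away (chr9:98034893-98034930), MPI, a mannose phosphate isomerase gene, at 434 bases, and FDXR, the mitochondrial ferredoxin reductase gene, at 82 bases.

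Start sites had more recurrent regions near them than their windows' length. The table does not hold every start. Of 260 regions on chromosomes it covers, 30 lay within 1 kb of a start (11.5%, 8.20 to 15.99), where the windows cover 1.99% of the span. By midpoint, 20 of the 30 were upstream and 10 at or downstream of the start, and 12 were within 100 bases, 9 of them upstream. The 12 include those shown at DNAJC19, ZNF330, ZSCAN25, ARL14EP, SNHG20, MLF1 and COX7C. UBB, a polyubiquitin gene (chr17:16381030-16381046), had a region centred 252 bases upstream of its start. CLPB, a mitochondrial disaggregase gene (chr11:72434248-72434259), had one 278 bases downstream, and POLR3C, an RNA polymerase III subunit gene (chr1:145824493-145824538), one 71 bases downstream. In the comparison groups the intervals overlapped that of the recurrent regions, at 12.7% of regions in ND5.3 and ND6 alone (8.80 to 17.9) and 13.9% of class IND regions in a single list (9.17 to 20.5).

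Only 3 of the 24 regions in ND4 lay within 1 kb of a start. They were centred 196 bases upstream of SLC30A5, a zinc transporter gene, 310 bases upstream of WASF1 and 962 bases upstream of SUOX, the sulfite oxidase gene. The last is the region that lies inside RAB5B. The share, 13.6% of 22 (4.75 to 33.3), differed from the 11.3% of the 238 others by 2.29 points (-7.74 to 22.3). The median signal percentile near starts was lower in ND6 and close to that of the other regions in ND5.1, without a test. The 30 regions had a median percentile of 68.8 in ND6 and 60.1 in ND5.1, against 79.5 and 61.2 for the 230 farther away, and from the 68 regions of highest mean percentile to the 68 of lowest the counts within 1 kb were 5, 7, 8 and 10.

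The deposited strand, on which the sequenced intervals begin and end with cytosine, differed little between the groups. It was plus for 149 of 272 regions (54.8%, 48.8 to 60.6), for 12 of the 24 in ND4 (50%, 31.4 to 68.6) and for 137 of the 248 others (55.2%, 49.02 to 61.3). The difference was -5.24 points (-24.8 to 14.3). Of 107 regions inside protein-coding genes of a single known strand, the deposited strand was the coding strand in 62 (57.9%, 48.5 to 66.9). For those in ND4 it was 7 of 10 and for the rest 55 of 97, and both intervals include an even division. By chromosome the recurrent regions were most frequent on chromosome 1, with 35, chromosome 6, with 21, and chromosome 11, with 20. Chromosomes 1, 7 and 15 held 3 of the 24 regions in ND4 each.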

How the data were processed

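The series held 30 Detect-seq libraries in 22 groups by title, 27 pulldown and 3 input. The hg38 build and the tools Bowtie2, cutadapt, Picard and SAMtools are named per the submitters' processing notes. Nothing in the sources used here says how regions were called and filtered. The signal value is a score per region that the authors deposited, per the file headers. The ND5.3 file holds bounds only, so other values came from the ND4, ND5.1 and ND6 lists.

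Recurrent regions were matched on identical bounds. The 12 on chromosome 8 were left out of start site and sequence counts, and some regions are not named. Genes, start sites and sequences came from RefSeq tables on GRCh38.p14, with 58419 genes and the starts of 34789 distinct windows. Distances to genes are edge to edge. Shares within a window of a start count from the nearest edge of the region, and printed distances to starts are from its midpoint. Intervals are 95% Wilson, Newcombe or order-statistic intervals, computed with Python 3.11.15 and scipy 1.17.1. No test across regions was run, since regions of 1 pooled list are not replicates. The procedures were tested on simulated data. Named regions followed a rule: all of those also in ND4, the 12 highest and 5 lowest by mean percentile, the 5 widest gaps each way, up to 20 near protein-coding gene ends, and the narrowest and widest. A selection of these is printed, and start sites were added. The regions and lists were chosen with earlier results of these data known.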

Additional observations from a re-analysis of the deposited data

How the results depend on the processing

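Over 64 combinations of a result with an alternative, 54 stayed within the 95% interval of the reported value, or within 1.5 times for a count, and 10 moved. Overlap of at least 1 base, merging within 1 kb and class IND alone each left 272 regions. The set was the same in each, so its shares, widths and correlations could not move. Those combinations are among the 54 and do not show robustness. Above the list median signal in both ND5.1 and ND6 there were 163 regions, 23 of them in ND4. Counting protein-coding genes alone, gene bodies held 47.4%. With windows of 5000 bases, 44.5% lay near a gene end, 26.5% near a protein-coding gene end and 21.2% near a start site, and with 500 bases 8.08% lay near a start site. Windows around starts were chosen after seeing the data, as was leaving out chromosome 8. Ranked within class IND alone, the median percentile over all 272 was 75.2 in ND6 and 53.8 in ND5.1, and for those not in ND4 it was 72.9 and 49.9. For the 24 in ND4 the median percentile in that list was 50 within class IND, against 36.0 in the whole list. Class IND holds 333 regions in ND5.1, 596 in ND6 and 36 in ND4, of which 272, 272 and 24 are recurrent. In ND5.1 and ND4 most of the class is recurrent, which limits how far the median percentile there can lie from 50. The cause of these shifts was not tested. No paired analysis was possible because each list is 1 pooled result without replicates. No alternative could address the depth of the libraries, which is unknown.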
